A study of Rattus norvegicus with 14 samples.

Results

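The conjugation enzymes of the second phase of detoxification were followed here in rat colonocytes, as the glutathione transferases (Gst and Mgst genes), the UDP-glucuronosyltransferases (Ugt1 and Ugt2 genes) and the cytosolic sulfotransferases (Sult genes). Every probe that was not a control and whose gene name on the array began with 1 of these family names was taken, which gave 57 of 30367 probes and 48 of 26276 genes. A gene was represented by its brightest probe. A gene counted as detected where the scanner software marked that probe as well above background on all 7 arrays of at least 1 diet. This held for 30 of the 48 genes, and the 30 are the ones whose changes are given below. Of these, 28 were detected in both diets, while Gstm3 passed through the NPD group (7 NPD and 6 HPD rats well above background) and Ugt1a9 through the HPD group (5 and 7), each through the diet in which its signal was higher.

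The rats were male Wistar animals with free access to a normal-protein diet (NPD, 14% of energy as protein) or a high-protein diet (HPD, 55% of energy as protein) of equal energy content, and were studied at day 15. Whole milk protein was the protein source of both diets. The HPD held less corn starch and sucrose than the NPD, so more protein and less carbohydrate cannot be told apart here. Colonocytes are the epithelial cells lining the colon, here detached from the colon with EDTA, and their RNA was hybridised with 1 dye to Agilent arrays, 1 rat per array, 7 rats per diet. A rat that the study had removed from each diet as an outlier was not analysed here, and the labels give no age. No genotype, transgene or drug treatment distinguished the groups.

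Detoxification of foreign and endogenous compounds often ends with the attachment of a polar group that makes a molecule easier to export. Glutathione transferases join reactive electrophiles to glutathione, UDP-glucuronosyltransferases attach glucuronic acid to phenols, steroids, bile acids and drugs, and sulfotransferases attach sulfate taken from the activated donor PAPS. In the colon these enzymes meet dietary compounds and phenols that bacteria release from amino acids.

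All values are log2 signals relative to the median probe of the same array, so a level compares rats for 1 probe and never 1 gene with another. The comparison of the diets was a limma fit to all 30367 probes, and a gene was called at a Benjamini-Hochberg adjusted p below 0.1. The arrays lay on 2 slides, of which slide 1 held 4 NPD and 3 HPD rats and slide 2 held 3 NPD and 4 HPD rats. Slide itself changed 12164 probes at that threshold, so differences within slides are given for the genes described rat by rat, and for the other members where they oppose the pooled sign. Between 18862 and 21002 probes per array were well above background, and between 29 and 33 of the 48 conjugation genes. HPD replicate 1 had the lowest mean correlation with the other rats of its diet (0.979), against 0.982 to 0.987 for the other HPD arrays.

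The array's probes for the mu-class transferases come from a tandem cluster of closely related genes on chromosome 2, so the probes were compared with each other. Those of Gstm2 (rn4, minus strand, chr2:203551176-203552101) and Gstm5 (rn4, plus strand, chr2:203457561-203457711) are printed because both genes had lower signal in the HPD group and because each probe, 60 bases long, covers a longer stretch of the genome than its length and so reads across an intron.
Gstm2 probe: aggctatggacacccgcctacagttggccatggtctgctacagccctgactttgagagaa
Gstm5 probe: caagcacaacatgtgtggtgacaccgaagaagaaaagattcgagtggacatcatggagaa
Over ungapped alignments, the largest number of matching bases between probes of different genes of a family was 36 of 60, between Gstm3 and Gstm4, while the pair of Gstm3 probes matched at 58 bases and the pair of Sult1b1 probes at 50. No Gstm2 or Gstm5 probe reached 35 matching bases with another member. Probes were compared only with probes and not with the transcripts of related genes, so low counts do not show that the genes are told apart. How far related transcripts bind each other's probes was not tested.

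Promoter sequence was matched through transcript accessions to the RefSeq table of build GRCr8 for 23 of the 30 detected genes. The 250 bases before the start of Gstm5, Gstm7 and Mgst1 are shown, since Gstm5 and Gstm7 are members of the same cluster whose diet differences had opposite signs in the reported fit and Mgst1 had the smallest p of all members. Capitals mark matches to the core of the antioxidant response element, the site that NRF2 binds, searched on both strands as TGACNNNGC. The Gstm5 stretch is chr2:198219519-198219768 on the plus strand, that of Gstm7 is chr2:198260320-198260569 on the minus strand, and that of Mgst1 is chr4:172760680-172760929 on the plus strand.
Gstm5 promoter: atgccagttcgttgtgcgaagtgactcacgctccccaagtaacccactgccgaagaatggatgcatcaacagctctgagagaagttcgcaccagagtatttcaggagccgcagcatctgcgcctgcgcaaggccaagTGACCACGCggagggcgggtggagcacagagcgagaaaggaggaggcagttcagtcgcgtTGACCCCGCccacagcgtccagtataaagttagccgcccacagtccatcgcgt
Gstm7 promoter: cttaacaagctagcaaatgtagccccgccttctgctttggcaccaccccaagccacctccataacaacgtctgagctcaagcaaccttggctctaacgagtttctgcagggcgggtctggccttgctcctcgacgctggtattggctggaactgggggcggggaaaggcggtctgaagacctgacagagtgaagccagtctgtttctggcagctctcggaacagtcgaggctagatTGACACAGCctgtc
Mgst1 promoter: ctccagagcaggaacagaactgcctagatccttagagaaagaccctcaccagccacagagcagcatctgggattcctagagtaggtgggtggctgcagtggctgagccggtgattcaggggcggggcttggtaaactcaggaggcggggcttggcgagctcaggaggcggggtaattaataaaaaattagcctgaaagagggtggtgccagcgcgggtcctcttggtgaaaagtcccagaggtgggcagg
The core stood 113 and 53 bases before the start of Gstm5 and 14 bases before that of Gstm7, and these letters were not in the Mgst1 window. Among the 23 detected genes with a promoter, 5 held it (Gsta5, Gstm5, Gstm7, Gstp1 and Gstz1), against 10.1% of all 33469 promoters of this length. The xenobiotic response element core of the aryl hydrocarbon receptor, GCGTG on either strand, stood in 8 of the 23 and in 25.9% of all promoters, and the AP-1 site TGAGTCA in 2 of the 23 (Gstm5 and Gstp1) and in 4.05% of all. In Gstp1 the AP-1 site and the antioxidant response element core start at the same base and overlap. A match is only a stretch of letters.

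None of the 30 detected genes was called between the diets, against 0.0560% of all probes called higher and 0% called lower. At an unadjusted p below 0.05, 6 had lower signal in HPD rats (20.0%) and 0 had higher. In the same fit 8.49% of all probes well above background were lower and 5.28% higher at that p. Among the 28 genes detected in both diets the same counts were 6 and 0. The 6 were all glutathione transferases: Gstm1, Gstm2, Gstm5, Gsto1, Gstt1 and Mgst1. In no member did all 7 HPD values lie on 1 side of the 7 NPD values, which occurred in 0.234% of all probes well above background on the lower side and 0.196% on the higher side.

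By direction alone, 14 of the 30 genes were lower and 16 higher, with a median log2 difference of 0.02 (range -0.80 to 0.38). Across the array, 43.2% of probes well above background were lower, and their median difference was 0.05. The transferases of glutathione had 13 of 21 genes lower and a median of -0.13, and the glucuronosyltransferases and sulfotransferases had 1 of 9 lower and a median of 0.23. Each group holds a gene detected through only 1 diet, Gstm3 in the first and Ugt1a9 in the second. Without Ugt1a9, 1 of 8 was lower, with a median of 0.20. These shares moved with the centring: with each array centred on its mean, 18 of the 30 genes were lower (60%), as were 52.6% of all detected genes against 41.8% when centred on the median. Over all 34 alternatives the median of the 21 glutathione transferases lay below 0 and that of the other 9 genes above 0, though 5 of the 9 were higher in the deposited table against 8 in the reported fit. With all probes of each gene averaged, the median of these 9 genes was 0.09.

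**Figure D1:**
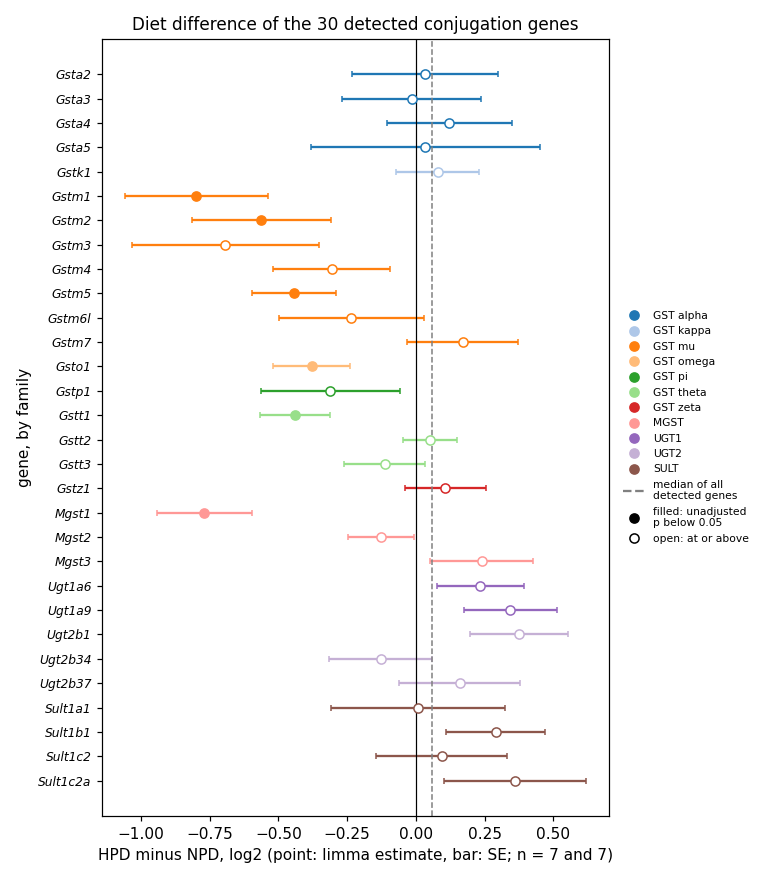
Log2 difference between the HPD and the NPD group for each detected conjugation gene, arranged and coloured by family, with the limma estimate as a point and its SE as a bar (7 rats per diet). Filled points mark the 6 genes with an unadjusted p below 0.05, all glutathione transferases to the left of 0, and the dashed line is the median of all detected genes on the array (0.06).

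The mu class was the family with the most lower members. Mu-class transferases are soluble dimers that conjugate epoxides and other electrophiles. Of its 8 genes on the array 7 were detected, 6 of these were lower, 3 at an unadjusted p below 0.05, and the median log2 difference was -0.44. Without Gstm3, 5 of 6 were lower, with a median of -0.37. Across all alternatives 6 or 7 of the 7 were lower.

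Gstm1 had log2 signals of 2.25, 2.85, 3.53, 2.49, 1.95, 2.65 and 2.40 in NPD replicates 1 to 7 and of 2.81, 1.95, 1.497, 1.21, 1.41, 1.97 and 1.69 in HPD replicates 1 to 7. HPD replicate 1 lay among the NPD rats, and the other 6 HPD rats lay below the NPD mean, so the diets overlapped. The difference was -0.80 ± 0.26 (SE; a 1.74-fold lower signal), with a limma unadjusted p of 0.00768 and an adjusted p of 0.417. It was -0.70 on slide 1 and -0.76 on slide 2, and the exact two-sided permutation test gave p = 0.0152 over all splits of the rats and 0.0196 within slides.

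Gstm5 signals were 2.73, 3.09, 3.09, 3.06, 3.03, 3.09 and 3.50 in the NPD rats and 2.77, 2.81, 2.76, 2.50, 2.96, 2.69 and 1.997 in the HPD rats. Each of the 7 HPD rats was below the NPD mean of 3.09 ± 0.22 (SD, n = 7), and NPD replicate 1 was the NPD rat that overlapped them. The log2 difference was -0.44 ± 0.15 (SE; limma unadjusted p = 0.0110, adjusted p = 0.417). The exact permutation p was 0.00350, and 0.00980 within slides, with differences of -0.21 on slide 1 and -0.67 on slide 2 whose interaction with slide had a limma unadjusted p of 0.142.

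Gstm2 signals were 4.31, 4.30, 4.46, 3.90, 3.24, 4.08 and 3.67 in the NPD rats and 4.30, 3.92, 3.74, 3.29, 3.11, 2.94 and 2.73 in the HPD rats. Signals on slide 2 were lower on average in both diets, and the diets overlapped, with HPD replicate 1 at the level of the upper NPD rats. The log2 difference was -0.56 ± 0.25 (SE; limma unadjusted p = 0.0424, adjusted p = 0.430), and -0.45 with slide as a block (unadjusted p = 0.0131, adjusted p = 0.229, with adjusted values of 0.0460 to 0.868 over all alternatives). Within slides the difference was -0.26 on slide 1 and -0.65 on slide 2. The exact permutation test missed 0.05 over all splits (p = 0.0612) and passed it within slides (p = 0.0212).

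Gstm6 was well above background in 6 NPD and 5 HPD rats and so fell short of detection in both diets. Its signals were -1.26, -0.67, -1.04, -0.73, -1.84, -2.10 and -1.18 in the NPD rats and -1.61, -1.70, -1.71, -1.99, -1.94, -2.51 and -2.55 in the HPD rats. Each of the 7 HPD rats stood under the NPD average, and 2 NPD rats of slide 2 lay among them. The limma difference was -0.74 ± 0.24 (SE; unadjusted p = 0.00700, adjusted p = 0.417), with an exact permutation p of 0.0134. On slide 1 it was -0.75 and on slide 2 -0.54. The size for this dim probe depended on the signal used: it was -0.12 after normexp, -0.20 with mean as with median pixel values and -0.24 in the deposited table.

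The remaining mu genes did not pass an unadjusted p below 0.05. Gstm3 differed by -0.69 ± 0.34 with its brighter probe and by -0.61 with the other, Gstm4 by -0.31 ± 0.21 and by -0.24 with its other probe, and Gstm6l by -0.24 ± 0.26. Gstm7 was the mu gene on the other side, at 0.17 ± 0.20 (SE, 7 rats per diet), and its sign turned with slide as a block added to normexp or to the deposited table.

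**Figure D2:**
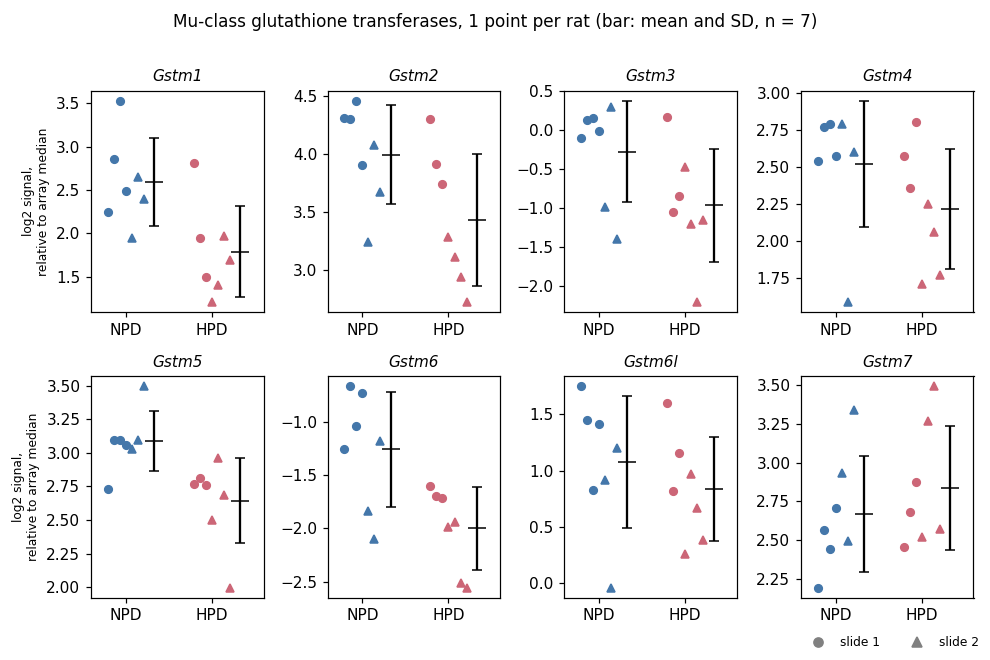
Log2 signal of the 8 mu-class genes relative to the array median, 1 point per rat, circles for slide 1 and triangles for slide 2, with the mean and SD of each diet (n = 7) as bars. HPD rats lie lower than NPD rats on average for Gstm1 to Gstm6l and overlap them in each panel, and for Gstm7 the HPD mean of 2.84 is above the NPD mean of 2.67.

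The microsomal transferases are membrane proteins unrelated in fold to the soluble enzymes. Mgst1, which sits in the endoplasmic reticulum and the outer mitochondrial membrane and also reduces lipid peroxides, had the smallest p of all members. Its signals were 1.96, 2.54, 2.28, 1.94, 2.52, 2.31 and 2.54 in the NPD rats and 1.23, 2.26, 1.47, 1.07, 1.52, 1.61 and 1.57 in the HPD rats. HPD replicate 2 was the HPD rat within the NPD range, and the other 6 lay below every NPD rat. The log2 difference was -0.77 ± 0.17 (SE; a 1.70-fold lower signal, limma unadjusted p = 0.000483, adjusted p = 0.386), with -0.53 on slide 1 and -1.02 on slide 2 (interaction with slide, limma unadjusted p = 0.174). The exact permutation test gave p = 0.00175 against a smallest possible value of 0.000583, and p = 0.00408 within slides. Without HPD replicate 2 Mgst1 was called.

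Neither relative of Mgst1 passed. Mgst2, which can also make leukotriene C, differed by -0.13 ± 0.12, and Mgst3 by 0.24 ± 0.19 (SE, 7 rats per diet).

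The theta and omega classes each had a member lower at an unadjusted p below 0.05. Gstt1, a theta enzyme known for conjugating small halogenated compounds, had signals of 1.20, 1.43, 0.97, 1.02, 1.06, 0.87 and 1.17 in the NPD rats and 0.84, 0.99, 0.66, 0.43, 0.66, 0.77 and 0.31 in the HPD rats. HPD replicate 2 alone reached above the lowest NPD values. The log2 difference was -0.44 ± 0.13 (SE; limma unadjusted p = 0.00352, adjusted p = 0.417), -0.33 on slide 1 and -0.49 on slide 2, with an exact permutation p of 0.00175. Gstt2 differed by 0.05 ± 0.10 and Gstt3 by -0.11 ± 0.15, with -0.08 for the other Gstt3 probe.

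Gsto1, an omega enzyme that reduces dehydroascorbate and mixed disulfides, had signals of 7.12, 7.03, 6.83, 6.67, 6.57, 6.58 and 6.76 in the NPD rats and 6.89, 6.48, 6.47, 6.03, 6.49, 6.18 and 6.38 in the HPD rats. HPD replicate 1 lay among the NPD rats and the other 6 HPD rats below them. The log2 difference was -0.38 ± 0.14 (SE; limma unadjusted p = 0.0167, adjusted p = 0.417), -0.30 on slide 1 and -0.37 on slide 2, with an exact permutation p of 0.0157. Its neighbour Gsto2 was well above background in 4 NPD and 5 HPD rats and had no detected level to compare.

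Gstp1, the pi-class enzyme, ran from 6.37 to 7.82 in the NPD rats (median 7.29) and from 6.12 to 7.56 in the HPD rats (median 6.94). The ranges nearly coincided, and the difference of -0.31 ± 0.25 (SE) had a limma unadjusted p of 0.236 and an exact permutation p of 0.261. In each of the 7 same-numbered pairs of rats, 6 of which shared a slide, the HPD rat had the lower signal. With replicate number as a block limma gave an unadjusted p of 0.0102 and an adjusted p of 0.181. Whether replicate numbers pair the rats is not given by the labels.

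The alpha, kappa and zeta classes lay close to 0. Alpha enzymes reduce lipid hydroperoxides, and Gsta4 conjugates hydroxynonenal, a product of lipid peroxidation. Gsta2 differed by 0.03 ± 0.26, Gsta3 by -0.02 ± 0.25, Gsta4 by 0.12 ± 0.23 and Gsta5 by 0.03 ± 0.42 with its brighter probe and -0.28 ± 0.23 with the other. Within slides Gsta3 differed by 0.21 on slide 1 and -0.41 on slide 2, Gsta2 and Gsta5 lay below 0 on both slides, and each alpha gene changed sign under some alternatives. Gsta4 had the smallest p of the class (limma unadjusted p = 0.602, exact permutation p = 0.624), with NPD rats from 6.11 to 7.09 (median 6.45) and HPD rats from 5.70 to 7.15 (median 6.61). Through their accessions, Gsta3 and Gsta5 of the array are named Gsta1 and Gsta3 in the current RefSeq table.

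Gstk1, a mitochondrial and peroxisomal enzyme, ran from 4.32 to 4.86 in the NPD rats and from 4.24 to 5.15 in the HPD rats, a difference of 0.08 ± 0.15 (SE; limma unadjusted p = 0.610) that was 0.15 on slide 1 and -0.07 on slide 2. Gstz1, the maleylacetoacetate isomerase of tyrosine breakdown, ran from 3.84 to 4.43 and from 3.60 to 4.56, a difference of 0.11 ± 0.15 (SE; limma unadjusted p = 0.480). In both genes HPD replicate 1 was the lowest rat of its diet, and the diets overlapped throughout.

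Among the glucuronosyltransferases no detected gene passed an unadjusted p below 0.05. Ugt1a9 was well above background in 5 NPD and all 7 HPD rats. Its signals were -1.03, -1.56, -1.61, -1.53, -1.58, -1.94 and -2.06 in the NPD rats and -1.23, -1.25, -0.70, -1.35, -1.65, -1.22 and -1.52 in the HPD rats. The diets overlapped, with NPD replicate 1 the brightest of its diet and HPD replicate 5 the dimmest of its own. The log2 difference was 0.34 ± 0.17 (SE; limma unadjusted p = 0.0619, adjusted p = 0.445), 0.38 on slide 1 and 0.42 on slide 2, and 0.40 with slide as a block (limma unadjusted p = 0.00965, adjusted p = 0.218, with adjusted values of 0.0553 to 0.868 over all alternatives). The exact permutation p was 0.0629 over all splits and 0.00980 within slides.

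Ugt1a6, known for planar phenols, had a pair of probes of opposite sign, 0.23 ± 0.16 for the brighter (chr9:87098271-87098330 in rn4) and -0.21 ± 0.18 for the other (chr9:87097621-87097680). The scanner files list transcripts of Ugt1a5, Ugt1a6 and Ugt1a7c for each probe, and the Ugt1a genes share their last exons, so neither probe reads Ugt1a6 alone.

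Ugt2b enzymes conjugate steroids and bile acids. Ugt2b1 ran from -0.61 to 0.03 in the NPD rats (median -0.34) and from -0.54 to 0.58 in the HPD rats (median -0.04), with 6 of 7 HPD rats above the NPD mean. Its difference was 0.38 ± 0.18 (SE; limma unadjusted p = 0.0534, exact permutation p = 0.0653). Ugt2b34, named Ugt2b10 in the current table, differed by -0.13 ± 0.19, and Ugt2b37 by 0.16 ± 0.22, while a further Ugt2b37 probe was well above background in 1 NPD rat and no HPD rat.

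None of the 4 detected sulfotransferases passed an unadjusted p below 0.05, and while all 4 differences were above 0 in the reported fit, those of Sult1a1 and Sult1c2 turned under 19 and 7 of the 34 alternatives. Sult1b1, which sulfates phenols and thyroid hormone, ran from 7.14 to 7.995 in the NPD rats (median 7.47) and from 7.36 to 8.37 in the HPD rats (median 7.65), with 6 of 7 HPD rats above the NPD mean. Its difference was 0.29 ± 0.18 (SE; limma unadjusted p = 0.129, exact permutation p = 0.145), and 0.27 with its overlapping probe. Sult1c2a differed by 0.36 ± 0.26 and 0.38 ± 0.23 with its probes, and NPD replicate 6 was its lowest rat at 4.71, without which the brighter probe differed by 0.12. Sult1c2 differed by 0.09 ± 0.24, with 0.23 on slide 1 and -0.16 on slide 2. Sult1a1, the phenol sulfotransferase, differed by 0.01 ± 0.32, with -0.01 on slide 1, -0.09 on slide 2 and -0.05 with slide as a block.

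**Figure D3:**
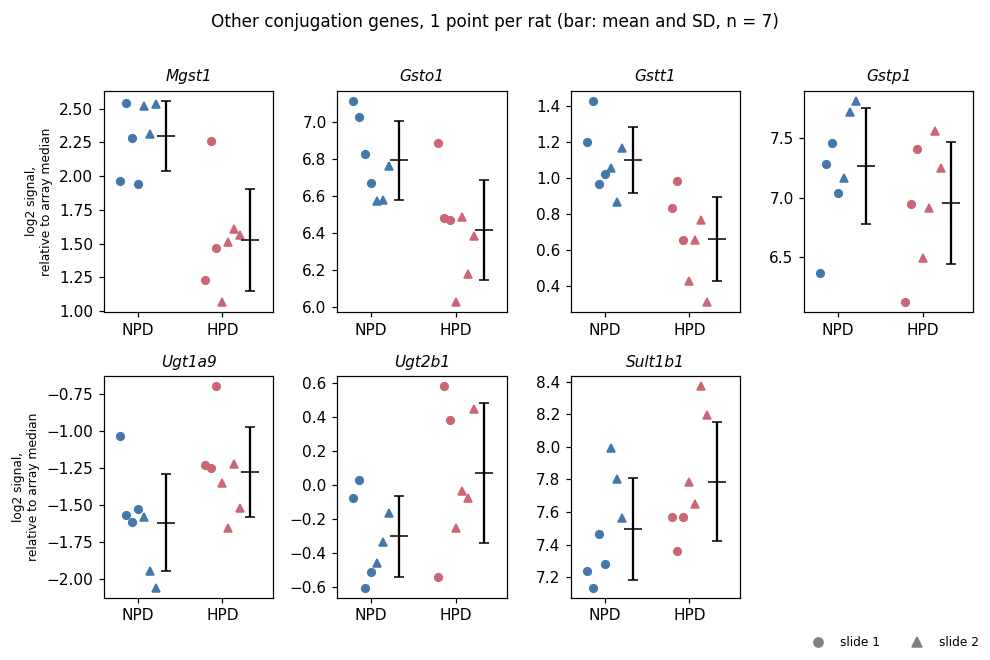
Signal in log2 units above the array median for 4 further glutathione transferases, a pair of glucuronosyltransferases and Sult1b1, 1 point per rat, circles for slide 1 and triangles for slide 2, with the mean and SD of each diet (n = 7). The HPD mean is below the NPD mean for Mgst1 (1.53 against 2.30), Gsto1, Gstt1 and Gstp1 and above it for Ugt1a9, Ugt2b1 and Sult1b1, and rats of both diets overlap in each panel.

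The other 18 genes were not detected: 9 of 13 sulfotransferases, 6 of 9 Ugt2 genes, and Gstm6, Gsto2 and Gstt4. Of the 18, 15 pointed higher, with a median of 0.24, and over all 11969 probes not detected the median was 0.22 and 24.4% were lower, so dim probes leaned higher across the array. Apart from Gstm6, Ugt2a1 was the undetected member with a limma unadjusted p below 0.05 (unadjusted p = 0.0329, adjusted p = 0.422). It was well above background in 0 NPD and 2 HPD rats. Its signals lay between -5.04 and -4.14 in the NPD rats, and HPD replicates 1 and 5 stood at -1.38 and -2.75 with the other 5 HPD rats between -4.49 and -3.75. Its HPD mean stood 1.31-fold above the dimmest signals counted as well above background on the NPD arrays. That value rests on those 2 rats and is not a lower bound, since the mean includes the 5 HPD rats not well above background.

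The supply and export of conjugates were followed with 63 partner genes, of which 54 were detected. None was called. At an unadjusted p below 0.05, 6 were lower (11.1%) and 4 higher (7.41%), against the 8.49% and 5.28% of all probes well above background, and the median log2 difference was 0.14. Of 8 detected genes of glutathione supply, Glo1, the glyoxalase that uses glutathione to clear methylglyoxal, differed by -0.29 ± 0.11 (SE; limma unadjusted p = 0.0173), and Chac1, which degrades glutathione, by 0.33 ± 0.11 (unadjusted p = 0.00919). All 7 HPD rats lay below the NPD mean for Glo1 and above it for Chac1. Gclm, the modifier subunit of glutathione synthesis, had a limma unadjusted p of 0.0207 but was well above background in 1 NPD rat and no HPD rat.

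Of 7 detected genes of sulfate and PAPS supply, the sulfate transporter Slc26a2 differed by 0.35 ± 0.14 (SE; limma unadjusted p = 0.0256) and Bpnt1, which removes the spent donor PAP, by 0.20 ± 0.09 (unadjusted p = 0.0469). None of the 4 genes of glucuronate supply passed. Gusb, the lysosomal β-glucuronidase that cleaves glucuronides, differed by -0.54 ± 0.20 (limma unadjusted p = 0.0184), the exporter Abcc3 by -0.39 ± 0.16 (unadjusted p = 0.0318) and Ephx2, the soluble epoxide hydrolase, by -0.63 ± 0.21 (unadjusted p = 0.00963).

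Among 12 detected xenobiotic sensors, the nuclear receptor Nr1i3 (CAR) differed by 0.73 ± 0.29 (SE; limma unadjusted p = 0.0228) and Keap1, the repressor of NRF2, by -0.24 ± 0.11 (unadjusted p = 0.0443). Glyat, a glycine conjugase with a limma unadjusted p = 0.0490, was not above background on any array. All adjusted p-values of these partner genes lay at 0.417 or above.

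In RNA of mixed cells, fewer cells of a type and less RNA per cell cannot be told apart. The 8 epithelial markers were all detected, with summed linear signals of 4771 to 5773 (median 5400) in the NPD and 4548 to 6294 (median 4847) in the HPD rats. Goblet cell markers, 9 of 9 detected, had a median log2 difference of -0.20. Their sums were 5173 to 7822 (median 6396) in the NPD and 4189 to 11080 (median 4794) in the HPD rats. Cycling and stem cell markers had a median of -0.19 with 4 of 6 detected (Lgr5 and Olfm4 not detected), immune markers -0.20 with 7 of 9 (Cd3e and Cd79b not detected), and stromal and muscle markers -0.24 with 6 of 8 (Col3a1 and Tagln not detected). Absorptive cell markers stood at 0.17 with 7 of 8 detected, enteroendocrine markers at -0.08 with 5 of 5, and red blood cell markers at 0.30 with 2 of 3. Detected markers with a limma unadjusted p below 0.05 went in both directions. Lower were the goblet genes Agr2 and Clca1 (-0.63 and -0.56), the cycling gene Top2a (-0.68) and the immune genes Cd74 and Lyz2 (-0.62 and -0.56). The muscle gene Myh11 (-0.48) and the epithelial keratin Krt19 (-0.36) were lower too. Higher were the goblet gene Spink4 (1.82), the red blood cell gene Hba-a2 (0.52) and the stromal gene Col1a1 (0.35). The immune gene Itgam (0.34) and the absorptive cell gene Guca2a (0.31) were also higher. HPD replicate 1 was the highest HPD rat for Agr2, Clca1, Top2a and Krt19, as it was for Gstm1, Gstm2 and Gsto1. For Mgst1 and Gstt1 the highest was HPD replicate 2, and for Gstm5 it was HPD replicate 5. Immune sums ran from 37.2 to 118 (median 51.2) in the NPD rats and from 37.8 to 45.6 (median 42.9) in the HPD rats. The part of these cell types in the differences above was not tested.

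How many members were called depended on the signal column, the background correction and slide. With normexp correction of the uncorrected signal, Gstm1, Gstm5, Gsto1, Gstt1 and Mgst1 were called lower and Ugt1a9 higher, where 5.51% of all probes were called lower and 9.01% higher. In the deposited table fitted with slide as a block, Gstm2 joined these 6, where 6.50% of genes were called lower and 3.98% higher. In the scanner values with slide as a block 0 members were called, where 0.0132% of probes were called lower and 0.0757% higher. The 6 glutathione transferases kept a negative difference and Ugt1a9, which counted as detected only through the HPD group, a positive one under all 34 alternatives. The 6 were picked by p in these same data, and some alternatives leave the difference unchanged, so the kept signs are no separate test.

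**Figure D4:**
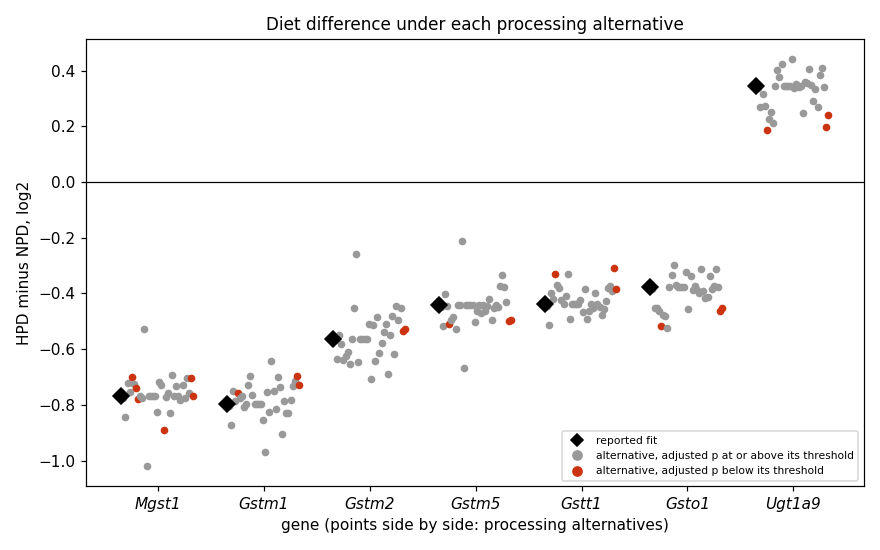
Log2 difference between the HPD and the NPD group for 7 genes in the reported fit (black diamond) and under each of 34 processing alternatives (circles, red where the gene was called). Mgst1 stays between -1.02 and -0.53 and Gstm1 between -0.97 and -0.64, and no gene crosses 0. Mgst1 has 6 red circles and Gstm2 has 2.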

How the data were processed

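For each array the authors deposited output of Agilent Feature Extraction 10.7.3.1, which gives per spot a linear fluorescence intensity together with flags for saturated spots and for spots well above background. The authors further deposited their own normalized log2 values, 1 row per gene name. Probe coordinates are those of the array design (rn4). Control spots and 320 to 461 outlier spots per array were left out, and the background-subtracted signal was log2-transformed, averaged over the spots of a probe and centred on the array median. The diets were set against each other in R 4.3.3 with limma 3.58.1 (package data.table, version 1.17.8, for reading), with diet as the only term and no filter on signal, and single genes with exact two-sided permutation tests over 3432 splits, or 1225 within slides. The fit was tested on simulated data. The number of arrays limits the precision. No member was saturated. The marker symbols Car2, Insl5 and Mki67 were not on the array.

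Members, partner and marker lists were chosen with earlier results of these data known. Every detected member is named; those given rat by rat or by their range had an unadjusted p below 0.05 or the smallest p of their family. Partner genes are named at an unadjusted p below 0.05, except for a result that is counted but not reported here. The 34 alternatives changed centring, normalization, background correction, signal column, filter, blocks, probe choice and threshold, or left out 1 array, and 4 of them were chosen after seeing the data. Changing only threshold, filter or variance estimate, or blocking by replicate number, left each detected member's difference unchanged and could not turn its sign. Through accessions, 52 of the 57 probes matched a current RefSeq symbol (build GRCr8), of which 7 differ from the array's name.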

Additional observations from a re-analysis of the deposited data

How the results depend on the processing

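No conjugation gene was called in the reported fit. Normexp called 6, where 4408 of 30367 probes were called. The median pixel signal called 1, where 20 probes were called, and the authors' deposited values 1, where 18 of 26414 genes were. Slide as a block combined with normexp gave 8, where 8244 of 30367 probes were called. Combined with the deposited values it gave 7, where 2767 of 26414 genes were called. The fits that leave out 1 array gave 0 to 1, where the 1 is Mgst1 without HPD replicate 2. For the 54 detected partner genes the calls were 0 in the reported fit and 8 after normexp (4408 of 30367 probes). They were 10 after normexp with slide as a block (8244 of 30367 probes). From the deposited values with slide as a block they were 8 (2767 of 26414 genes), and 0 to 0 when leaving out an array. Members lower in the HPD group numbered 14, where 41.8% of all detected genes were lower. They numbered 22 after normexp (58.3% of all detected genes) and 23 from the deposited values (62.6%). Slide as a block added to each gave 23 (65.4%) and 24 (66.0%), and leaving out an array gave 13 to 17. Members lower at an unadjusted p below 0.05 numbered 6, with 0 on slide 1 alone, 5 on slide 2 alone (7 rats on each) and 5 to 7 when leaving out an array, and Gstm1, Gstm5, Gsto1, Gstt1 and Mgst1 were among them in each fit that left out an array. The fits combining slide with normexp, cyclic loess or the deposited values, and centring on the median over spots, were chosen after seeing the data.

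Of the 30 detected members, 19 kept their sign under all 34 alternatives and 11 did not (Gsta2, Gsta3, Gsta4, Gsta5, Gstk1, Gstm7, Gstt2, Gstz1, Sult1a1, Sult1c2 and Ugt1a6), whose reported differences were at most 0.23 in size. Gsta4 had a log2 difference of -0.0267 after normexp, -0.0208 from the deposited values, -0.00475 on slide 1, -0.0152 after loess with slide as a block, -0.109 after normexp with slide and -0.0878 from the deposited values with slide. Gstk1 had -0.0531 after normexp, -0.016 with the mean pixel signal, -0.0108 with the median pixel signal, -0.0522 from the deposited values, -0.0685 on slide 2, -0.0925 after normexp with slide and -0.0753 from the deposited values with slide. Gstz1 had -0.0279 after normexp and -0.0362 from the deposited values, and -0.0529 and -0.0436 when slide was added to each. The cause was not tested.

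The labels do not say that replicate numbers pair the rats, but 6 of the 7 same-numbered pairs shared a slide and replicate 4 did not. Deviations of the same-numbered arrays from their diet means correlated between -0.15 (replicate 4) and 0.66 (replicate 1). With the replicate block, 0 members were called, 14 were lower, and 7 were lower (the 6 and Gstp1) and 2 higher (Ugt1a9 and Ugt2b1) at an unadjusted p below 0.05. Of the 7 NPD rats, only replicate 1 correlated best with the HPD rat of its own number, and the block called 8 probes against 17 without it. Leaving out HPD replicate 1 raised the calls over all probes from 17 to 151, none of them a member, and added Gstm3 to the lower and Ugt1a6 and Ugt2b1 to the higher members at an unadjusted p below 0.05. Between 3 and 8 partner genes were lower and between 1 and 8 higher at that p when an array was left out, against 6 and 4.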
